A study of Mus musculus with 9 samples.

Results

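The small leucine-rich proteoglycans are secreted matrix proteins with a core of leucine-rich repeats, most of which carry glycosaminoglycan chains. They bind collagen fibrils and shape their width and spacing, hold growth factors of the TGF-beta and BMP families in the matrix, and, when released, bind cell surface receptors. Class I holds biglycan, decorin and asporin, class II holds osteomodulin, prolargin, lumican and fibromodulin, and osteoglycin belongs to class III. Stromal cells of bone marrow and bone are known makers of several of them. Here 8 of the 21959 genes in the deposited table were followed by symbol, namely Bgn, Dcn, Aspn, Ogn, Omd, Prelp, Lum and Fmod. The family was chosen by name because Aspn was already known from these data to be lower with peritoneal fluid, so the values of Aspn are given as a description with no test.

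RNA had been sequenced from a mouse bone marrow stromal line that the labels call mesenchymal stromal cells(SV40), cell type BMMSC, grown in DMEM/F12 with 10% FBS. The cells had stood for 24 h with phosphate-buffered saline (PBS, labelled MSC+PBS), with peritoneal interstitial fluid (PF) of control mice (control PF, labelled MSC+ctrl-PF), or with PF of mice that had received TNBS for 3 days (TNBS PF, labelled MSC+TNBS-PF). TNBS binds proteins of the gut wall and is given to rodents as a model of colitis. Each of the 3 groups had 3 libraries of this 1 line. The sources used here do not say whether the line is a clone or a pool, nor give the strain, age and number of the fluid donors. Nothing in the labels says that the libraries of a group came from separate cultures, so the p-values hold for the spread between these libraries, which could be technical.

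Values are FPKM, a fragment count divided by gene length and library depth, so levels of different genes can be compared per length. The length is that of all annotated exons, from 2249 bases for Omd to 6099 for Bgn, not of the transcript made. This limits comparisons between genes. The libraries held 17.9 to 25.6 M assigned fragments, and 10537 genes with at least 1 FPKM in at least 3 libraries were tested. Libraries of a group correlated at 0.9963 to 0.9979 and libraries of different groups at 0.9938 to 0.9963 (Pearson r of log2 values, across genes, which are not independent replicates). As a check of the label, 15 of 16 genes of stromal identity passed the filter, with Ly6a, the surface antigen Sca-1, at 260.02 ± 11.3 FPKM in control PF (SD, n = 3), while 3 pan-leukocyte markers summed to between 0.582 and 0.924 FPKM. Markers of neutrophils, lymphocytes, mast cells with eosinophils, and endothelium each summed to less than 1 FPKM in every library. In bulk RNA, fewer cells of a type and less RNA per cell cannot be told apart.

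The 8 genes differed widely in level. Biglycan and decorin together made 88.9% ± 0.525 of the summed FPKM of the family in PBS (SD, n = 3), 89.6% ± 0.428 in control PF and 90.9% ± 0.687 in TNBS PF. In PBS only 77 genes of the table stood above Bgn and 156 above Dcn, against 850 above Ogn, 4665 above Aspn and 9196 above Omd. These 5 genes had at least 1 FPKM in all 9 libraries and were tested. Prelp, Lum and Fmod stayed under 1 FPKM in each library and were not.

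**Figure D1:**
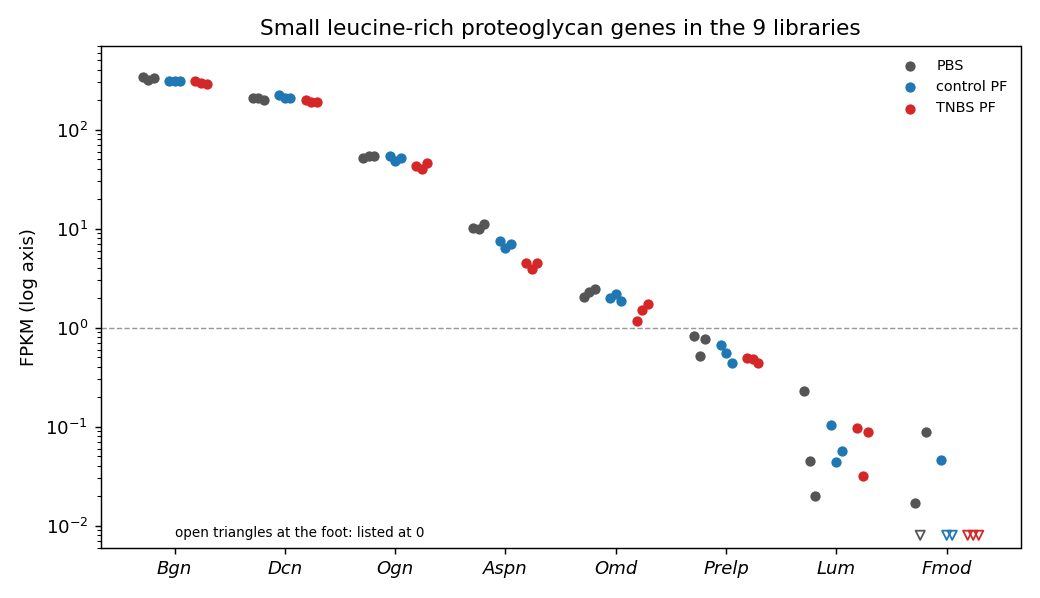
FPKM on a log axis for each of the 8 genes (x axis, by falling level) in the 9 libraries, coloured by group, with open triangles for values listed at 0 and a dashed line at 1 FPKM. Bgn and Dcn lie at 188 FPKM or more in all libraries, Aspn steps down from PBS to TNBS PF without overlap, and Lum and Fmod lie under 0.3 FPKM.

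Among the 4 tested members other than Aspn, Dcn and Ogn fell in TNBS PF against control PF, 0 of 4 changed in control PF against PBS, and Bgn, Ogn and Omd fell in TNBS PF against PBS. None of these genes rose in any of the 3 comparisons. Calls rest on limma fitted to log2(FPKM + 1) of all genes in the 9 libraries, with a Benjamini-Hochberg adjusted p under 0.05. This scale understates the change of genes at low FPKM. Over all tested genes, 5.45% were called lower and 5.15% higher in TNBS PF against control PF, 1.14% lower and 1.02% higher in control PF against PBS, and 8.88% lower and 7.8% higher in TNBS PF against PBS. The 3 comparisons share groups, and each is given by its own values. With median-ratio scaling of the libraries the calls over all genes shifted from 543 higher and 574 lower to 679 and 442 in TNBS PF against control PF, and from 822 and 936 to 1047 and 762 in TNBS PF against PBS, where scaling to TPM gave 624 and 1153. The median log2 difference over all genes was -0.01, 0.00 and -0.01 in the 3 comparisons in that order. No member changed direction under any scaling. The calls of members other than Aspn were 2, 0 and 3 as deposited and with median-ratio scaling, 3, 0 and 4 with TPM scaling, and 2, 0 and 4 with quantile normalization. TPM values are larger than FPKM in these libraries, so the added 1 weighs less there. The TPM setting thus changes more than the scaling.

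The count of 0 in control PF against PBS, from limma, leaves out Aspn. It stands beside 1 other member, Bgn, whose unadjusted p from the limma model was 0.00939. Limma voom on recovered fragments called 1 member other than Aspn, also Bgn. Counted by separation alone, the 5 tested members each had all TNBS PF values under all control PF values, which held for 18.2% of all tested genes. Aspn and Bgn were separated downward in control PF against PBS (9.32% of all tested genes), and the 5 tested members in TNBS PF against PBS (19.7%). Prelp was also separated downward in TNBS PF against PBS, but it was not tested and is not part of this share. The same contrasts brought Aspn to notice, so nothing is read from these shares.

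**Figure D2:**
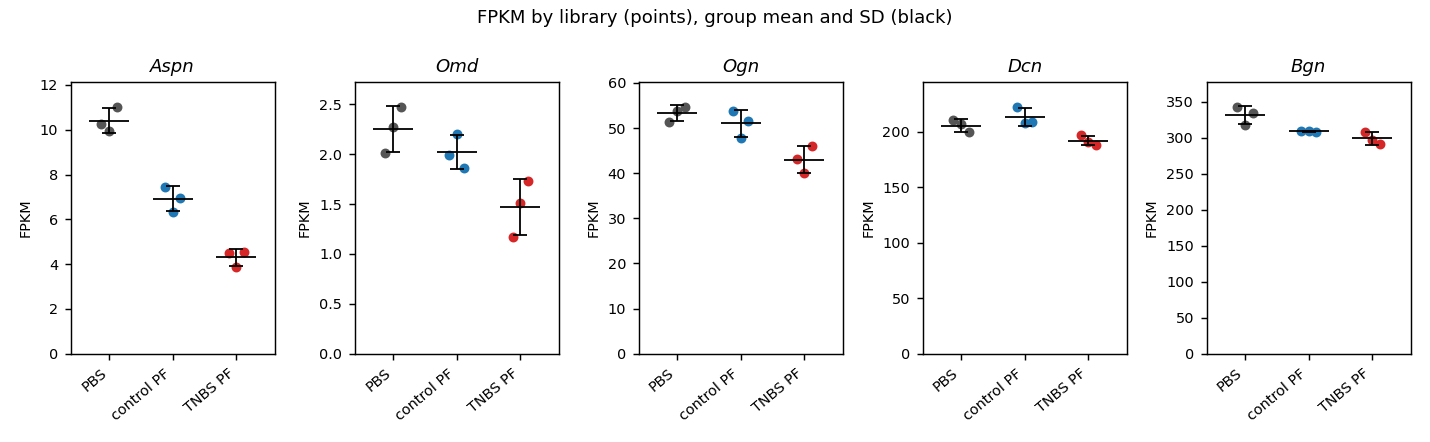
FPKM of the 5 tested genes by library (points) on axes that start at 0, with the mean and SD of each group of 3 in black. All 5 genes are lowest in TNBS PF. Dcn has its highest mean in control PF and the others in PBS. Aspn has 3 separated levels, and the groups of Bgn do not overlap either, narrowly so between TNBS PF and control PF.

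Bgn (ENSMUSG00000031375, mm10 chromosome X, 73483602 to 73495933, plus strand) encodes biglycan, a core protein with chondroitin or dermatan sulfate chains that binds collagen and, when soluble, the receptors Tlr2 and Tlr4. It measured 343, 317 and 335 FPKM in PBS 1 to 3, 309.7, 309 and 308 in control PF 1 to 3, and 308, 297 and 292 in TNBS PF 1 to 3. The 3 groups did not overlap, although the highest TNBS PF library lay just under the lowest control PF library. Bgn fell by 0.15 on the log2 scale in TNBS PF against PBS (SE 0.0329, limma adjusted p = 0.00826, group means 298.9 ± 8.46 and 331.4 ± 13.1 FPKM), and this call held in 19 of 19 alternative settings. The difference of control PF from PBS was -0.10 (adjusted p = 0.150, with a mean of 309.0 ± 0.776 in control PF), and it passed the threshold in 3 of 19 alternatives. Without PBS 2 its adjusted p was 0.0330. TNBS PF differed from control PF by -0.05 with a 95% interval of -0.12 to 0.02 (adjusted p = 0.400).

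Dcn (ENSMUSG00000019929, chromosome 10, 97479609 to 97518143, plus strand) encodes decorin, which decorates collagen fibrils and binds TGF-beta and receptor tyrosine kinases. Its levels were 210.5, 207 and 199 FPKM in PBS, 222, 208 and 209 in control PF, and 197, 191 and 188 in TNBS PF. Every TNBS PF library lay under every other library, while PBS and control PF overlapped. Dcn fell by 0.15 on the log2 scale in TNBS PF against control PF (SE 0.0337, limma adjusted p = 0.0137, means 192.1 ± 4.44 and 213.05 ± 8.09 FPKM). The call was lost when control PF 1 (adjusted p = 0.0562), TNBS PF 2 (0.0519) or TNBS PF 3 (0.0637) was left out, and it held in 16 of 19 alternatives. In control PF against PBS (mean 205.5 ± 5.61) the difference was 0.05, with an interval of -0.02 to 0.12 (adjusted p = 0.508). TNBS PF against PBS gave -0.10 (adjusted p = 0.0684), which passed the threshold in 6 of 19 alternatives.

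Biglycan and decorin therefore had their highest group mean in different groups, and their ratio, chosen after the values had been seen, was computed per library. Dcn per Bgn was 0.621 ± 0.0286 in PBS, 0.690 ± 0.0248 in control PF and 0.643 ± 0.00341 in TNBS PF (SD, n = 3). All 3 control PF ratios, from 0.674 to 0.718, lay above those of PBS, from 0.596 to 0.652, and above those of TNBS PF. The exact two-sided permutation p of Dcn per Bgn was 0.1 for control PF against PBS and 0.1 for TNBS PF against control PF. This is the smallest that 3 against 3 can give. For TNBS PF against PBS it was 0.4. Because the ratio was chosen from the values of these same libraries, nothing is read from these p-values. Other ratios were put to the same permutation test. Omd per Ogn gave 0.6 in TNBS PF against control PF, 0.6 in control PF against PBS and 0.1 in TNBS PF against PBS. Ogn per Dcn gave 0.3, 0.2 and 0.2 in the same order.

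Aspn (ENSMUSG00000021388, chromosome 13, 49544443 to 49567565, plus strand) encodes asporin, a class I protein with an aspartate-rich start that binds collagen and TGF-beta and usually carries no glycosaminoglycan chain. It was at 10.2, 9.92 and 11.02 FPKM in PBS, 7.45, 6.35 and 6.95 in control PF, and 4.50, 3.87 and 4.54 in TNBS PF. The groups formed 3 steps without overlap. The means were 10.4 ± 0.561, 6.92 ± 0.553 and 4.30 ± 0.378 FPKM, which makes control PF 1.503-fold lower than PBS and TNBS PF 1.61-fold lower than control PF. Against PBS, TNBS PF was 2.42-fold lower. These values rest on 233 to 527 fragments a library. As a share of the summed FPKM of the family, Aspn was 1.72% ± 0.0906 in PBS, 1.19% ± 0.0736 in control PF and 0.796% ± 0.0652 in TNBS PF. Set against the neighbour gene Ogn, Aspn was at 19.5% ± 0.946 of the Ogn level in PBS, 13.5% ± 0.302 in control PF and 10.0% ± 0.405 in TNBS PF.

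Ogn (ENSMUSG00000021390, chromosome 13, 49608046 to 49624501, plus strand) encodes osteoglycin, also called mimecan, a class III protein found in bone and connective tissue. It stood at 51.3, 53.8 and 54.7 FPKM in PBS, 53.7, 47.8 and 51.6 in control PF, and 43.0, 39.97 and 46.0 in TNBS PF. TNBS PF lay under both other groups, which overlapped. Ogn fell by 0.24 on the log2 scale in TNBS PF against control PF (SE 0.0513, limma adjusted p = 0.00935, means 43.0 ± 3.00 and 51.0 ± 3.00 FPKM) and by 0.30 against PBS (SE 0.0513, adjusted p = 0.00162, mean 53.3 ± 1.75). Both calls held in 19 of 19 alternatives. Control PF against PBS gave -0.06 with an interval of -0.17 to 0.05 (adjusted p = 0.618).

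Omd (ENSMUSG00000048368, chromosome 13, 49582462 to 49592822, plus strand) encodes osteomodulin, or osteoadherin, a keratan sulfate proteoglycan of mineralised matrix. Its level was low, with 2.02, 2.27 and 2.47 FPKM in PBS, 2.00, 2.20 and 1.86 in control PF, and 1.17, 1.51 and 1.73 in TNBS PF, from 66 to 113 fragments a library. The TNBS PF values were under all others, and PBS and control PF overlapped. Omd fell by 0.40 on the log2 scale in TNBS PF against PBS (SE 0.0884, limma adjusted p = 0.00780, means 1.47 ± 0.281 and 2.25 ± 0.229 FPKM), in 18 of 18 alternatives. Against control PF (mean 2.02 ± 0.171) the difference was -0.29 with an interval of -0.49 to -0.10. Its adjusted p of 0.0508 missed the threshold, and over the alternatives it ranged from 0.0320 to 0.186, under the threshold in 5 of 18. Control PF against PBS gave -0.11 (adjusted p = 0.610).

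**Figure D3:**
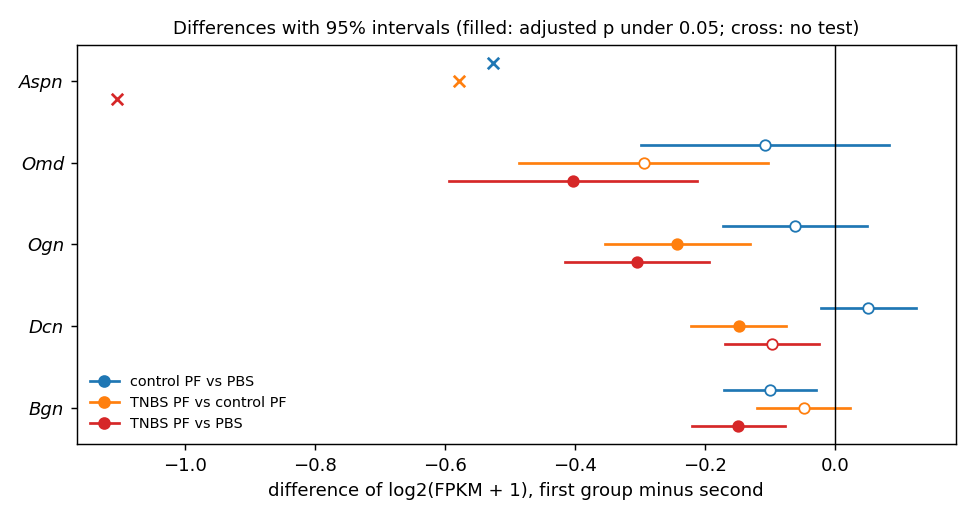
Difference of log2(FPKM + 1) for the 5 tested genes in the 3 comparisons, with 95% intervals, filled where the adjusted p was under 0.05, and crosses without interval for Aspn. Differences run from -1.10 for Aspn in TNBS PF against PBS to 0.05 for Dcn in control PF against PBS, and the intervals of Omd are the widest of the 4 genes shown with one.

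Among the 3 genes under the filter, Prelp (ENSMUSG00000041577, chromosome 1, 133910304 to 133921414, minus strand), which encodes prolargin, a collagen-binding protein of basement membranes and cartilage, was measured best. It was at 0.821, 0.523 and 0.762 FPKM in PBS, 0.669, 0.550 and 0.437 in control PF, and 0.496, 0.486 and 0.435 in TNBS PF, from 34 to 56 fragments. TNBS PF lay under PBS without overlap, and control PF overlapped both. In limma voom on genes with at least 10 fragments in 3 libraries, a setting added after Prelp had been seen under the filter, TNBS PF against PBS gave -0.55 (adjusted p = 0.137). The gene shares 350 exon bases with the antisense gene Gm15851, and the sources used here do not state the strand of the libraries, so reads of the pair cannot be told apart within those bases.

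Lum (ENSMUSG00000036446, chromosome 10, 97565128 to 97572703, plus strand), which encodes the corneal and tendon proteoglycan lumican, had 10, 2 and 1 fragments in PBS, 5, 2 and 3 in control PF and 6, 2 and 5 in TNBS PF. No group stood apart. Fmod (ENSMUSG00000041559, chromosome 1, 134037254 to 134048277, plus strand), which encodes the collagen-binding fibromodulin, had 1, 0 and 6 fragments in PBS and 3, 0 and 0 in control PF, and was listed at 0 in all 3 TNBS PF libraries. A count of 0 allows up to 3 fragments, which in the 6 libraries at 0 is 0.0355 to 0.0505 FPKM, for counting error only. A difference between groups was not detectable for either gene at this depth.

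Summed over the 8 genes, the FPKM were 603.7 ± 13.7 in PBS (590.2 to 617.6), 582.6 ± 11.8 in control PF (574.1 to 596.04) and 540.3 ± 12.3 in TNBS PF (532.7 to 554.5). The sum follows Bgn and Dcn, which carry most of it. TNBS PF lay under the other groups, and PBS and control PF overlapped. In the authors' deposited table, whose test no label or header names, the p-values of TNBS PF against control PF were 0.00185 for Dcn, 0.00179 for Ogn, 0.0368 for Omd and 0.304 for Bgn. For TNBS PF against PBS the same authors' deposited table gave log2 fold changes of -0.60 for Omd, -0.29 for Ogn, -0.13 for Bgn and -0.08 for Dcn. The deposited p-values there were 0.00347 for Omd, 1.15e-06 for Ogn, 0.00156 for Bgn and 0.0203 for Dcn. For control PF against PBS they were 0.00230 for Bgn, 0.185 for Dcn, 0.298 for Ogn and 0.409 for Omd.

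Aspn, Omd and Ogn lie side by side on chromosome 13 in 1 direction, behind Ecm2, a further leucine-rich repeat gene. The span from the start of Ecm2 to the end of Ogn is 119.7 kb, with 14.9 kb between Aspn and Omd and 15.2 kb between Omd and Ogn. Levels along the row were 0.207, 10.4, 2.25 and 53.3 FPKM in PBS, so that Omd, in the middle, was below both neighbours. All of them lie inside the antisense gene Cenpp, a centromere protein gene, which shares 7 exon bases with Aspn and 0 with Omd and Ogn. Cenpp was at 5.19 ± 0.257, 5.56 ± 0.478 and 4.75 ± 0.111 FPKM in PBS, control PF and TNBS PF (-0.19 on the log2 scale in TNBS PF against control PF, limma adjusted p = 0.0661). Nol8, the next gene beyond Ogn, was at 4.93 ± 0.183, 4.62 ± 0.0951 and 5.23 ± 0.192 FPKM (0.15, adjusted p = 0.0821). On chromosome 10, Dcn and Lum are 47.0 kb apart, yet Dcn was above 188 FPKM and Lum under 0.3 in each library. Kera, the keratocan gene beyond Lum, had 1 fragment in 1 of the 9 libraries.

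**Figure D4:**
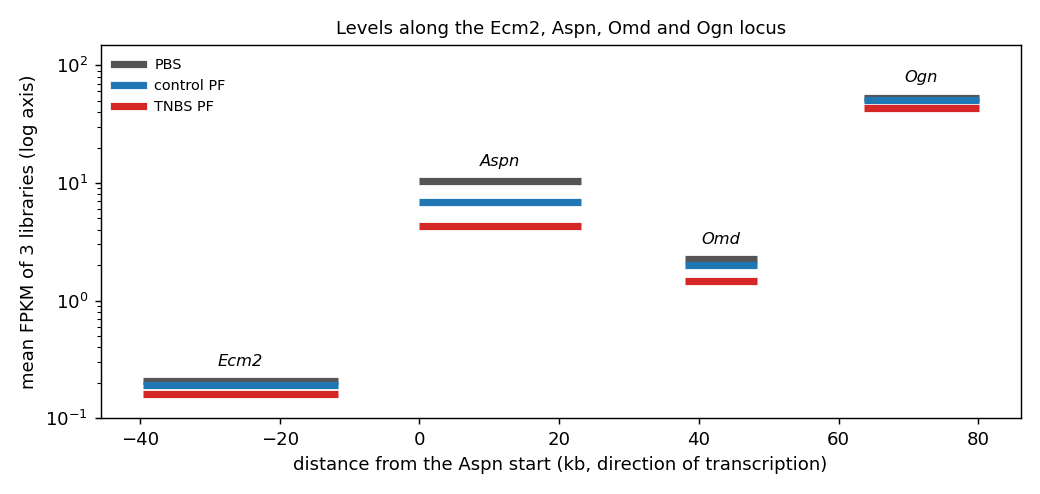
Mean FPKM of each group of 3 libraries on a log axis, drawn over the extent of Ecm2, Aspn, Omd and Ogn in kb from the start of Aspn. Ecm2 is near 0.2 FPKM and Ogn above 40, the mean of TNBS PF is lowest for each gene, and the steps between groups are widest for Aspn. Ecm2 had 10 to 30 fragments a library, and its groups overlapped in each comparison.

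Aspn, Omd and Ogn, and also Bgn, the most abundant member, were lower in TNBS PF than in PBS, and their promoters are shown. A link between promoter sequence and these changes was not tested. RefSeq (GRCm38.p6) gave a start for 6 of the 8 genes, with none for Dcn and Lum. Each line holds the 250 bases before the start, 5′ to 3′ on the plus strand, and capitals mark matches on either strand to the TATA box (TATAAA), the GC box (GGGCGG), the SMAD half-site (CAGAC), the TEAD core (GGAATG) or the AP-1 motif (TGANTCA).
Aspn, chr13:49544193-49544442: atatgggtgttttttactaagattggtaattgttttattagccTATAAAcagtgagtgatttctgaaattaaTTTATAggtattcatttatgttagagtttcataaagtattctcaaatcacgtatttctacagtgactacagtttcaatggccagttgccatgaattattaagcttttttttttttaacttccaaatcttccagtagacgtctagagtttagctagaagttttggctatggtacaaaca
Omd, chr13:49582212-49582461: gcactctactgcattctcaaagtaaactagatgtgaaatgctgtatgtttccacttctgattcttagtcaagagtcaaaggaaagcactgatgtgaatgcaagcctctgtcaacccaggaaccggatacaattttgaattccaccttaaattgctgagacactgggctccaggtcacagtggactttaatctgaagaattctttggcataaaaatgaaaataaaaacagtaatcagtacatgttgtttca
Ogn, chr13:49607765-49608014: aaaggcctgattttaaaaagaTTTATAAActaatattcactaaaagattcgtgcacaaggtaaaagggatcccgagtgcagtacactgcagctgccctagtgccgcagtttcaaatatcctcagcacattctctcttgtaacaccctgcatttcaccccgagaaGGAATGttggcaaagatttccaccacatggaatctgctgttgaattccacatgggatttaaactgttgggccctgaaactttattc
Bgn, chrX:73483351-73483600: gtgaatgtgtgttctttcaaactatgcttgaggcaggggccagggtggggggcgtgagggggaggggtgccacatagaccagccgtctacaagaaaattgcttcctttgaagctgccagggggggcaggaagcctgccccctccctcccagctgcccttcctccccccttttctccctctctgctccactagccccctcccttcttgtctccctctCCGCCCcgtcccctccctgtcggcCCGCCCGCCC
The Aspn window is 30% G and C, a share that 1.61% of the 32851 RefSeq promoters of this length reach or fall below, whose median is 52.4%. It was 38.4% for Omd, 42.0% for Ogn and 64.4% for Bgn.

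The Aspn window holds TATAAA at 207 to 202 bases before the start and, on the other strand, at 178 to 173. Ogn holds overlapping matches to it on both strands, from 229 to 222, and GGAATG at 86 to 81. In the Bgn window GGGCGG matched 3 times on the minus strand, between 34 bases and 1 base before the start, and the last 2 of these overlap. CAGAC was found 2 times before Fmod and 1 time before Prelp. Over all promoters, TATAAA was present in 12.4%, GGGCGG in 32.7%, CAGAC in 42.2%, GGAATG in 12.6% and TGANTCA in 6.75%. None of the 6 windows held TGANTCA and none of the motifs was in that of Omd, which says only that these letters are not in these windows.

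Of 10 other genes of the family, 2 were tested and 0 were called in any comparison by limma. Tsku, which encodes tsukushi, was at 14.6 ± 1.26, 15.0 ± 0.402 and 14.2 ± 0.951 FPKM in PBS, control PF and TNBS PF. Podnl1, podocan-like protein 1, was at 4.59 ± 0.824, 5.20 ± 0.339 and 5.30 ± 0.450 FPKM. Their unadjusted p ranged from 0.0745 to 0.821, so 0 of these were under 0.05. Podn, the podocan gene, was under the filter with 0.703 ± 0.266, 0.535 ± 0.0949 and 0.346 ± 0.0380 FPKM, and its TNBS PF values lay under those of both other groups. In the added voom setting Podn gave -0.94 in TNBS PF against PBS (adjusted p = 0.0127) and -0.62 against control PF (adjusted p = 0.149). Ecm2, Optc, Chad, Chadl and Nyx were each under 0.6 FPKM throughout, and Epyc was listed at 0 in all 9 libraries.

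Most of the collagens that these proteins bind fell in TNBS PF. The counts that follow are in the order TNBS PF against control PF, control PF against PBS, and TNBS PF against PBS. For this list and those below, the shares of all tested genes were 5.45%, 1.14% and 8.88% lower and 5.15%, 1.02% and 7.8% higher. Of 11 tested fibrillar collagens and collagen partners, 7, 3 and 10 fell in these comparisons and 0 rose in each. Their median log2 differences were -0.19, -0.09 and -0.24, beside -0.01, 0.00 and -0.01 over all genes. Col3a1, which forms type III fibrils, stood at 46.7 ± 1.73, 38.3 ± 1.02 and 26.9 ± 0.396 FPKM in PBS, control PF and TNBS PF, and fell by 0.49 in TNBS PF against control PF (limma adjusted p = 4.25e-06) and by 0.28 in control PF against PBS (adjusted p = 0.00139). Col6a1, of the microfibrils that bind biglycan and decorin, fell by 0.32 (adjusted p = 3.59e-05) and 0.13 (adjusted p = 0.0322) in the same comparisons. Col12a1, a fibril-associated collagen, fell by 0.44 in control PF against PBS (26.1 ± 1.67 to 19.0 ± 1.08 FPKM, adjusted p = 0.000785). The call of Col6a1 in control PF against PBS was lost on leaving out any 1 library except TNBS PF 2 or PBS 2 (adjusted p up to 0.1199).

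More of the collagen processing and fibril assembly genes fell than rose in each comparison. Of 28 tested, 3, 6 and 10 fell and 1, 0 and 2 rose, with medians of -0.06, -0.03 and -0.09. Among all tested genes 5.45%, 1.14% and 8.88% fell and 5.15%, 1.02% and 7.8% rose. Thbs2, a thrombospondin needed for normal collagen fibrils, fell by 0.48 in TNBS PF against control PF (limma adjusted p = 1.13e-05), and Fbn1, of fibrillin microfibrils, by 0.24 (adjusted p = 0.00497). Tnc, the matrix glycoprotein tenascin C, was at 47.9 ± 2.10, 39.1 ± 1.34 and 46.0 ± 1.12 FPKM in PBS, control PF and TNBS PF. It fell by 0.29 in control PF against PBS (adjusted p = 0.00192) and rose by 0.23 in TNBS PF against control PF (adjusted p = 0.00213). Postn, which encodes periostin, was at 1.71 ± 0.230, 0.839 ± 0.0634 and 0.684 ± 0.0255 FPKM in PBS, control PF and TNBS PF. Only its PBS mean was above 1 FPKM, so it passed the filter through the group where it is high. Its falls against PBS are part of the counts above, but are given here as a description with no test.

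Among 14 tested core proteins of other proteoglycans, 2, 1 and 5 fell and 1, 1 and 0 rose. Their medians were -0.09, -0.02 and -0.07. Vcan, which encodes the large chondroitin sulfate proteoglycan versican, had its highest mean in control PF, at 15.9 ± 0.459, 18.4 ± 1.01 and 16.0 ± 0.184 FPKM in PBS, control PF and TNBS PF. It rose by 0.20 in control PF against PBS (limma adjusted p = 0.0307) and fell by 0.19 in TNBS PF against control PF (adjusted p = 0.0124). Esm1, the endocan gene, rose by 0.44 in TNBS PF against control PF (adjusted p = 0.0474), and Spock2, a testican gene, fell by 0.27 in TNBS PF against PBS (adjusted p = 0.00110). The rise of Vcan was lost without control PF 2 or 3 or PBS 1 or 3 (adjusted p up to 0.113) and its fall without control PF 3 or TNBS PF 2 (up to 0.0577). The rise of Esm1 was lost without any 1 control PF library and without TNBS PF 1 or 2 (up to 0.160).

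Of 23 tested enzymes that build the linker and the chondroitin and dermatan sulfate chains, 3, 0 and 4 fell and 0, 1 and 1 rose, with medians of -0.03, 0.02 and -0.01. Over all genes 5.45%, 1.14% and 8.88% fell and 5.15%, 1.02% and 7.8% rose. Chst11, a chondroitin sulfotransferase gene, rose by 0.21 in control PF against PBS (17.7 ± 0.308 to 20.6 ± 0.338 FPKM, limma adjusted p = 0.0104) and fell by 0.20 in TNBS PF against control PF (adjusted p = 0.00430). Xylt2, a xylosyltransferase that starts the chain, fell by 0.17 in TNBS PF against control PF (adjusted p = 0.0230), and Papss2, which makes the sulfate donor, by 0.25 in TNBS PF against PBS (adjusted p = 0.00498). The call of Xylt2 was lost without control PF 2 or 3 or TNBS PF 1 or 2 (adjusted p up to 0.0955). Of 5 keratan sulfate enzymes, 0 passed the threshold in any comparison by limma. In TNBS PF against control PF the galactosyltransferase gene B4galt1 differed by -0.13 (adjusted p = 0.0565), the 1 gene of this list with an unadjusted p under 0.05 in any comparison and the 1 called by voom. Its adjusted p ranged from 0.0162 to 0.197 over the alternatives and was under the threshold in 5 of 19, among them without TNBS PF 1 (0.0307) and without PBS 1 (0.0483).

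Among 15 tested ligands, receptors and binding proteins of TGF-beta and BMP, 1, 1 and 2 fell and 1, 0 and 1 rose (medians -0.07, 0.01 and -0.03). For both lists in this paragraph, 5.45%, 1.14% and 8.88% of all tested genes fell and 5.15%, 1.02% and 7.8% rose. Tgfbr2, the type II receptor gene, fell by 0.28 in TNBS PF against PBS (limma adjusted p = 0.000993), while Ltbp1, which holds latent TGF-beta in the matrix, rose by 0.13 (adjusted p = 0.0133). Of 14 other receptors and partners that bind these proteoglycans, 2, 2 and 2 fell and 1, 0 and 1 rose (medians 0.02, -0.03 and -0.02). Tlr2, a receptor of soluble biglycan, was at 13.3 ± 0.822, 10.9 ± 0.169 and 8.98 ± 0.672 FPKM in PBS, control PF and TNBS PF, and fell by 0.27 (adjusted p = 0.0244) and then by 0.25 (adjusted p = 0.0102). Tlr4 fell by 0.20 in TNBS PF against control PF (adjusted p = 0.0177). The hyaluronan receptor gene Cd44 fell by 0.21 in control PF against PBS (adjusted p = 0.00189) and rose by 0.21 in TNBS PF against control PF (adjusted p = 0.000456). Calls lost on leaving out 1 library were that of Ltbp1 without TNBS PF 3 (adjusted p = 0.0530), the first of Tlr2 without any 1 control PF library or PBS 1 (up to 0.0921) and its second without TNBS PF 2 (0.0505), and that of Tlr4 without control PF 1 or TNBS PF 2 or 3 (up to 0.0684).

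Proteases known to cleave these core proteins were also followed. Of 10 tested, 1, 1 and 3 fell and 0 rose in each comparison (medians -0.06, 0.01 and -0.14). The shares of all tested genes, for each list in this paragraph, were 5.45%, 1.14% and 8.88% lower and 5.15%, 1.02% and 7.8% higher. Adamts4, an aggrecanase gene, fell by 0.35 in TNBS PF against control PF (limma adjusted p = 0.00112), and the gelatinase gene Mmp9 fell by 0.46 in control PF against PBS (adjusted p = 0.0178), a call lost without control PF 1 or 2 or PBS 3 (up to 0.0702). Of 6 tested osteogenic and tenogenic genes, 1, 2 and 1 fell and 1, 1 and 0 rose (medians -0.06, -0.03 and -0.10). Mkx, a tendon transcription factor gene, fell by 0.24 in TNBS PF against control PF (adjusted p = 0.00603) and Sparc, a collagen-binding bone matrix gene, fell by 0.17 in TNBS PF against PBS (adjusted p = 0.00166). Egr1, an early response transcription factor gene, rose by 0.15 in TNBS PF against control PF (adjusted p = 0.0217), a call lost without control PF 1 or 2 or TNBS PF 1 or 3 (up to 0.0975). Spp1, the osteopontin gene, rose by 0.17 in control PF against PBS (adjusted p = 0.0365), a call lost without control PF 1 or 2, TNBS PF 3 or any 1 PBS library (up to 0.142). Of 15 tested genes of stromal identity, 5, 1 and 5 fell and 2, 1 and 3 rose (medians -0.01, 0.00 and -0.01). Pdgfrb fell by 0.39 (adjusted p = 0.000104) and Pdgfra, like it a receptor for platelet-derived growth factor, by 0.38 (adjusted p = 0.000235) in TNBS PF against control PF. Ly6a fell by 0.32 in this comparison, to 208.6 ± 3.69 FPKM in TNBS PF (limma adjusted p = 0.000219). In the same list Cd44 rose, as given above, and Nt5e, which encodes the surface enzyme CD73, rose by 0.44 in TNBS PF against PBS (adjusted p = 0.00361). Median and mean differed in sign for the other receptors in TNBS PF against control PF (mean -0.01), and in control PF against PBS for the proteases (mean -0.04) and stromal identity (median -0.0039, mean 0.02).

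**Figure D5:**
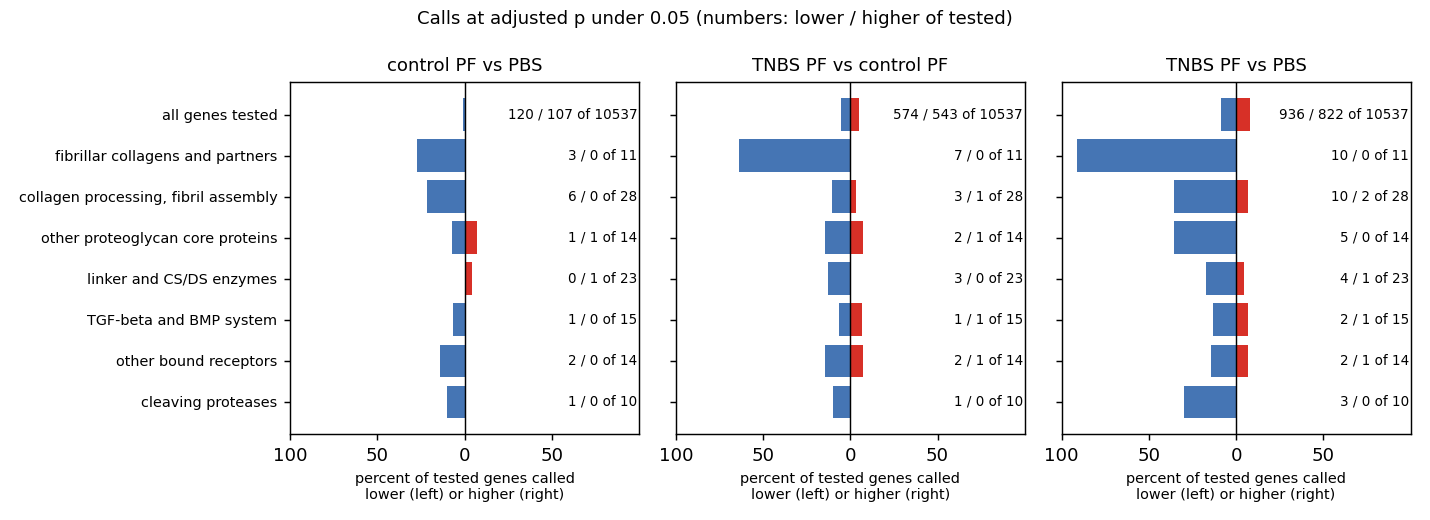
Percent of the tested genes of each list called lower (bars to the left) or higher (bars to the right) in the 3 comparisons, with the counts printed beside them and all tested genes in the top line. Fibrillar collagens and partners have 10 of 11 genes lower in TNBS PF against PBS, where 8.88% of all genes were.

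Markers of other cell types were summed in each library. The 14 mesothelial markers summed to 47.8 to 48.8 FPKM in PBS, 46.2 to 47.7 in control PF and 52.7 to 57.9 in TNBS PF, most of it Msln, the mesothelin gene, with a mean of 38.6 FPKM. Of these markers 10 were under 1 FPKM throughout and Muc16 and Nkain4 were at 0 in all libraries. Of the 4 tested, 3 rose in TNBS PF against control PF and 3 in TNBS PF against PBS. Over all tested genes 5.15% and 7.8% rose in these comparisons. The 12 macrophage and monocyte markers summed to 16.9 to 18.5, 18.4 to 20.4 and 19.4 to 21.7 FPKM in these groups. Cd14 carried this sum with a mean of 14.04 FPKM, and Timd4 and Ccr2 were at 0. Of the 3 tested, 0 rose in TNBS PF against control PF and 2 in TNBS PF against PBS, beside the same shares. The part of either in the levels of the proteoglycan genes was not tested.

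Over the 9 libraries Aspn and Ogn had the highest Pearson r among the tested members (0.907, log2 values), followed by Aspn and Bgn (0.866) and Aspn and Omd (0.820), and Bgn with Dcn had the lowest (0.444). These are descriptions over libraries that share 3 treatments. By the same measure over 10348 tested genes, the pattern most like that of Aspn was that of Mme, the neprilysin gene (r = 0.989), at 1.78 ± 0.0528, 1.05 ± 0.178 and 0.543 ± 0.0412 FPKM in PBS, control PF and TNBS PF. Lamp2, a lysosomal membrane gene (r = 0.983), and the matrix remodelling gene Mxra8 (r = 0.981) came next, and Tinagl1 was the least alike (r = -0.993), with 13.9 ± 0.435, 16.5 ± 0.2498 and 19.2 ± 0.263 FPKM. For Ogn the complement gene C1ra came first (r = 0.953), for Bgn the peptide transporter gene Tap1 (r = 0.971), for Dcn Lix1l (r = 0.964) and for Omd the cyclin gene Ccnl2 (r = 0.964). Their next 2 genes were Vps45 and Hsd17b7, Arhgap1 and Rad50, Nsdhl and Rhof, and Pld3 and Fas, in that order of members.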

How the data were processed

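RNA of 9 libraries was sequenced by the submitters, with reads trimmed by cutadapt 1.15 per the submitters' processing notes and build mm10. No source used here names the aligner, the strand or the program that counted. The authors deposited FPKM per gene and library, which per the file headers also come with a log2 fold change and a p-value for each pair of groups. The deposited log2 and p-value columns were copied for members and not used in tests.

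FPKM times GENCODE M21 exon length gave whole fragments, within 0.01, for 97.2 to 97.3% of values under 1000 fragments, from which depth was recovered. Genes with at least 1 FPKM in at least 3 libraries (10537 of 21959) were tested as log2(FPKM + 1) with limma 3.58.1 in R 4.3.3, with all 9 libraries in 1 fit, a mean-variance trend and Benjamini-Hochberg adjustment at 0.05. The added 1 makes differences of low genes smaller. The procedure was run on simulated data as a check of the code only, and no result here rests on it. Per the replicate numbers of the labels, 0 of 9 same-numbered pairs of libraries deviated together (r over 0.1), so no pairing was used.

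Alternatives were a pseudocount of 0.1, no filter or 5 FPKM, TPM, median-ratio or quantile scaling, 2 groups only, a replicate block, limma voom on recovered fragments, and each library left out. Members, gene lists, motifs and tests were chosen with earlier results of these data known. Named genes are the members, other family genes, up to 4 of each list per comparison by largest change past the threshold (or the 1 of smallest p), the 3 most and 1 least alike genes per tested member, and neighbours.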

Additional observations from a re-analysis of the deposited data

How the results depend on the processing

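No member changed direction under any alternative. Of 225 values of members other than Aspn under alternatives, 208 kept their side of the threshold, 3 lost it and 14 gained it, and of the values of other named genes 1293 kept it, 170 lost it, 5 gained it and 2 reversed. The reversed values were those of Sox9 in TNBS PF against PBS, -0.05 with all libraries and -0.0820 to 0.0108 with a library left out, above 0 without TNBS PF replicate 3 and without PBS replicate 1. Members other than Aspn called in TNBS PF against control PF, 2 with all libraries, ranged from 1 to 3 with a library left out. Those other than Aspn in control PF against PBS, 0 with all libraries, ranged from 0 to 1, with 1 by voom under either filter. All genes called in TNBS PF against control PF (1117) ranged from 661 to 1255, falling to 733 and 708 without control PF replicates 2 and 3 and to 691, 661 and 676 without TNBS PF replicates 1, 2 and 3. In control PF against PBS (227) the range was 115 to 311. Leaving out control PF replicates 1, 2 and 3 gave 115, 130 and 124, and leaving out PBS replicate 3 gave 142. The counts were 103 without a filter, 374 by voom and 354 by voom with 10 fragments. In TNBS PF against PBS (1758) the range was 1148 to 1735, the lowest without TNBS PF replicate 3. With the replicate block 906, 169 and 1537 genes and 3, 0 and 4 members other than Aspn were called in the 3 comparisons. The stricter filter removed Omd. Fragments limit Omd, Prelp, Lum and Fmod, and the cause of these shifts was not tested.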
